A study of Mus musculus with 8 samples.

Results

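The genes described here are the nuclear-encoded subunits of respiratory complexes II to V, with cytochrome c, in the hearts of mice with and without diet-induced kidney disease. They were taken by symbol from the gene count table: Sdha, Sdhb, Sdhc and Sdhd for complex II, Cyc1 and every symbol that starts with Uqcr for complex III, Cycs for cytochrome c, every symbol that starts with Cox4 to Cox8 for complex IV, and every symbol that starts with Atp5 for complex V, without entries marked as pseudogenes. This gave 49 genes of 27304 in the table: 4 in complex II, 9 in complex III, 1 for cytochrome c, 18 in complex IV and 17 in complex V. Hearts came from male mice of the inbred strain 129/Sv. The control group, titled Sham by the submitters, ate a standard diet, and the other group a diet with 0.15% adenine, in both cases for 13 weeks. Adenine in the feed damages the kidney through a poorly soluble product that crystallises in the tubules, so the heart is an organ at a distance from the injury. Each diet has 4 bulk RNA libraries. The labels give no other treatment or allele, no age, and no statement that each library came from its own animal, so the p-values speak to the spread among the samples as deposited, which may be of technical origin.

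Complex II (succinate dehydrogenase) passes electrons from the citric acid cycle to coenzyme Q, complex III passes them on to cytochrome c, complex IV (cytochrome c oxidase) hands them to oxygen, and complex V (ATP synthase) makes ATP from the proton gradient that complexes III and IV help to build. Heart muscle draws most of its ATP from this chain and is packed with mitochondria. Complex II is built from nuclear genes alone, whereas complexes III, IV and V combine nuclear subunits with subunits encoded in mitochondrial DNA. Several complex IV subunits exist as pairs of isoforms, one made in heart and skeletal muscle (Cox6a2, Cox7a1, Cox8b) and one made in most tissues (Cox6a1, Cox7a2, Cox8a).

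The promoters of these isoform pairs are shown because the muscle forms Cox7a1 and Cox8b had the lowest p of all the subunits. Of the 49 genes, 37 matched a promoter entry by Entrez gene identifier in the RefSeq table for GRCm38.p6, and Cox6a2 had none. The stretches below lie within the 250 bases before the start site, with any annotated exon left out, and are written 5′ to 3′ on the strand of the gene. They span chr7:30183921-30184143 on the plus strand for Cox7a1, chr9:79759879-79760103 on the minus strand for Cox7a2, chr7:140900447-140900696 on the minus strand for Cox8b, chr19:7217617-7217866 on the minus strand for Cox8a and chr5:115348982-115349129 on the minus strand for Cox6a1. Capitals mark the motifs CCAAT (the NF-Y box), CAGCTG (an E-box), GGGCGG (the Sp1 box) and the core of the NRF1 site (GCGCA, then any base, then GCGC), on either strand.
Cox7a1: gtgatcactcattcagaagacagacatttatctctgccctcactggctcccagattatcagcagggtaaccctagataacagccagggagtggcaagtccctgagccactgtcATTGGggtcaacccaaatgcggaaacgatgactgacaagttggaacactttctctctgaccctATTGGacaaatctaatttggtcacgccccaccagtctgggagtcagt
Cox7a2: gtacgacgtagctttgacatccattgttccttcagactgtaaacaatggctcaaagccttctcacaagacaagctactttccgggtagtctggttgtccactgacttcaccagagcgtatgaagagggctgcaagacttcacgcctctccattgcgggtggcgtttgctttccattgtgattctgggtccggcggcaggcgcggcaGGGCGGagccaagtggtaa
Cox8b: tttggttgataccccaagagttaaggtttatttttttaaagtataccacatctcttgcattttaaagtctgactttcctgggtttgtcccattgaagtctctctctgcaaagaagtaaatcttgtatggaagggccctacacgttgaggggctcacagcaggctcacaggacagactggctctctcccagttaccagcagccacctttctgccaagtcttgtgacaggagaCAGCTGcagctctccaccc
Cox8a: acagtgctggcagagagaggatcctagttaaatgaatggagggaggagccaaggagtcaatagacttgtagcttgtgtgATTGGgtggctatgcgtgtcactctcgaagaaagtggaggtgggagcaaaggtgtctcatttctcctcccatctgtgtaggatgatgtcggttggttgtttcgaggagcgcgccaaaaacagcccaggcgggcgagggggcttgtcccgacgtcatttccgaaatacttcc
Cox6a1: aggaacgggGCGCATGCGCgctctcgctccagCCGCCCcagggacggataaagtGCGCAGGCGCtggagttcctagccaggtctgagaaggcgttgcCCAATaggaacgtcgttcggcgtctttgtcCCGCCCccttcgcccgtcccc

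In these letters the muscle form Cox7a1 carried 2 CCAAT boxes, at bases -137 to -133 and -74 to -70 from the start site, and Cox8b carried 1 CAGCTG, at -19 to -14. The ubiquitous form Cox7a2 carried 1 GGGCGG, Cox8a carried 1 CCAAT, and Cox6a1 carried 2 NRF1 cores, 1 CCAAT and 2 GGGCGG. The stretches differ in length: 102 of the 250 bases are left out for Cox6a1, against 0 to 27 for the others. Over the 250 bases before the start, CCGGAAG (the ETS site bound by GABPA, also called NRF2) was present in 9 of 37 respiratory genes (24.32%). It was present in 6.95% of all 32536 promoter windows. In Cox6a1 it lies at -16 to -10, in the part not printed above. Shares of the respiratory set count genes with a match in any window, and shares of all count single windows. They are therefore not like for like. The NRF1 core was present in 7 of 37 (18.92%) against 3.77% of all, and CCAAT in 21 of 37 (56.76%) against 33.81% of all. CAGCTG was present in 2 of 37 (5.41%), Cox8b and Atp5b, against 13.05% of all. CAGCTG is 1 case of the wider E-box CANNTG, which was present in 62.16% of these genes and 66.19% of all windows. GGGCGG (32.43% against 32.97%) and the nuclear receptor motif AGGTCA (16.22% against 14.04%) had nearly the same shares in both sets, and the MEF2 motif was in 0 of 37 against 2.89% of all. These matches describe letters in a window, and promoters that share a start region are not independent.

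Total counts ran from 15626620 reads in adenine library 2 to 33886385 in control library 2, and transcripts of the mitochondrial genome took 31.0% to 35.6% of control reads and 34.2% to 41.9% of adenine reads. Ventricular cardiomyocyte markers (Myl2, Myh6, Tnni3 and 5 others) summed to 46235 to 57591 CPM (read counts brought to a common library size with TMM factors) over the controls and to 29948 to 53804 over the adenine libraries. The 5 atrial markers summed to 4864 CPM in control 2, against 867 to 1088 in the other controls, and to 105 CPM in adenine 2 against 915 to 2183 in the other adenine libraries. In adenine 2 that gap came from Nppa (94.7 CPM, against 545 to 1683 CPM). The atrial gene Myl4 was about as low in adenine 4 (7.74 CPM) as in adenine 2 (6.85 CPM). The 8 macrophage markers summed to 2674 CPM in adenine 3 and to 256 to 530 in the other libraries. The 5 erythroid markers summed to 26049 CPM in control 1 and to 1660 to 8058 CPM in the other libraries. Control 2, adenine 3, adenine 2 in Nppa alone, and control 1 in erythroid markers therefore stand apart, and values that rest on them are given below. In RNA from bulk tissue, fewer cells of a type and less RNA per cell cannot be told apart.

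Of the 49 genes, 48 passed the low-count filter. The one that did not, Cox7b2, a testis form of subunit VIIb, had 4 to 18 reads per library. Together the 49 genes took 3.26 ± 0.181% of all reads on the control diet and 2.96 ± 0.220% on adenine (SD, n = 4). With mitochondrial transcripts removed from the total, the shares were 4.95 ± 0.297% and 4.79 ± 0.498%. A log2 fold change below 0 means a lower level on the adenine diet throughout.

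None of the 48 genes tested passed an adjusted p of 0.05 (edgeR quasi-likelihood F-test, Benjamini-Hochberg adjustment over 20093 genes). Their adjusted p-values ran from 0.264 to 0.972. Over all genes the same test called 0 lower (0%) and 8 higher (0.0398%). DESeq2, which called 0.797% of its 19080 genes lower and 0.629% higher, called 0 of the respiratory genes, and so did limma-voom, which called 0% lower and 0.0249% higher. Without adenine 3, where edgeR called 0.144% of 20824 genes lower and 0.178% higher, it called 0 of them as well. With no adjustment, a p under 0.05 in the edgeR test placed 2 of 48 genes lower, Cox7a1 and Cox8b, and 0 higher, against 6.63% of all genes lower and 10.9% higher. In none of the 48 did the 4 adenine libraries lie wholly outside the range of the 4 controls, against 3.84% of all genes wholly lower and 3.45% wholly higher.

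The direction was nevertheless the same for nearly all of them. The log2 fold change was negative in 46 of 48 genes, against 45.8% of all genes tested, and positive in 2 of 48, against 54.2%, with a median of -0.20 (range -0.52 to 0.39) against 0.05 over all genes. The 2 positive values belonged to Cox6b2 (0.18) and Cox8c (0.39), testis forms with mean levels of 1.15 and 0.355 CPM in the controls. Abundant genes as a class also lay below 0 in this comparison: among the 2254 genes with a mean over 50 CPM, 81.6% had a negative value and the median was -0.17. The 45 respiratory genes above that level were negative in 45 of 45 cases, with a median of -0.20, close to the median of that class. Many of them lie well above 50 CPM, so the class is not matched to them in abundance. Under upper-quartile scaling, which moved the median of all genes to 0.20, the median of the respiratory genes was -0.05 and 32 of 48 values were negative.

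**Figure D1:**
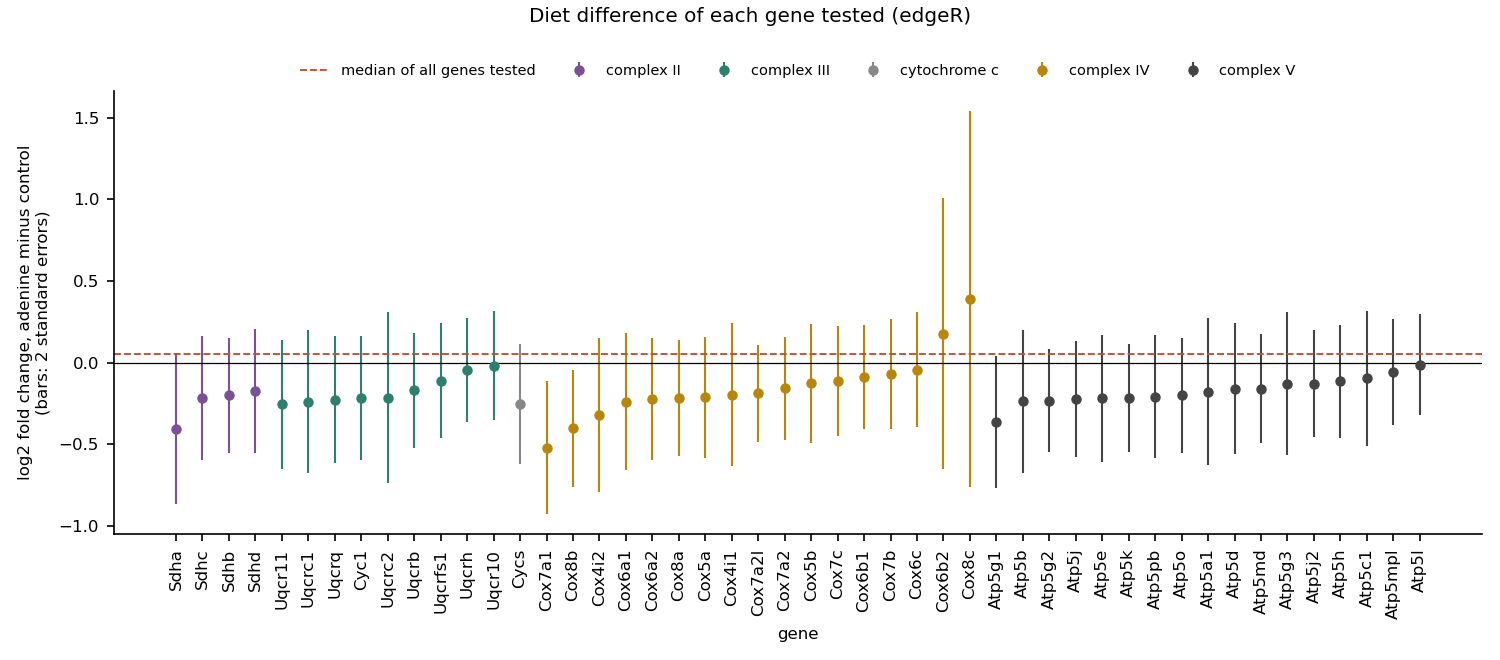
Log2 fold change (adenine minus control) of the 48 tested genes, ordered by complex and by value, with bars of 2 standard errors and a dashed line at the median of all genes tested (0.05). Nearly all points lie below 0, from -0.52 (Cox7a1) upward, and the bars of Cox7a1 and Cox8b alone stay below 0.

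The precision of these estimates sets what could be seen. Standard errors of the 45 abundant genes ran from 0.15 to 0.26 log2 units. The intervals of 2 standard errors reached as low as -0.92, for Cox7a1, and as high as 0.32, for Atp5c1. An interval that leaves out 0, as for Cox7a1, did not suffice for a call once p was adjusted over all genes.

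The controls varied widely in complex II. Sdha, the flavoprotein that holds the succinate-binding site, measured 856, 1135, 687 and 508 CPM in the 4 controls, in the order of their numbers, and 644, 648, 545 and 572 CPM in the 4 adenine libraries. The control values span more than the whole adenine range, with control 2 highest and control 4 below every adenine library, so the diets overlap. Its log2 fold change was -0.40 (SE 0.23, adjusted p = 0.344), and it was -0.19 without control 2 and -0.57 without control 4 (unadjusted p = 0.0184, adjusted p = 0.182). Sdhc, one of the membrane anchors that hold the heme, measured 367, 479, 357 and 355 CPM in the controls and 411, 328, 251 and 352 CPM on adenine. Adenine 2, 3 and 4 lay below all controls, adenine 4 by a narrow margin, and adenine 1 lay above 3 of them. The log2 fold change of Sdhc was -0.22 (SE 0.19, adjusted p = 0.50). The iron-sulfur subunit gene Sdhb (-0.20) and the second anchor gene Sdhd (-0.18) had adjusted p-values of 0.502 and 0.585. Summed over the 4 genes, complex II measured 2148 ± 497 CPM in the controls and 1779 ± 155 CPM on adenine (SD, n = 4), a difference smaller than the control SD. The 4 assembly factors of complex II (Sdhaf1 to Sdhaf4) all had negative values, with a median of -0.12 and 0 called. The lowest p belonged to Sdhaf4 (-0.25, SE 0.15, adjusted p = 0.344) and Sdhaf2 (-0.17, SE 0.13, adjusted p = 0.446), which act on Sdha before it joins the complex.

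Complex III and cytochrome c gave 10 of 10 negative values, with adjusted p-values of 0.431 and above. Cycs, the mobile carrier between complexes III and IV, measured 1024, 1206, 980 and 852 CPM in the controls and 992, 783, 878 and 763 CPM on adenine. Control 4 lay below adenine 1 and adenine 3, so the groups overlap although the means differ (1016 ± 147 and 854 ± 105 CPM, SD, n = 4). The log2 fold change of Cycs was -0.25 (SE 0.18, adjusted p = 0.431). Uqcr11, a small accessory subunit, measured 449, 492, 487 and 578 CPM in the controls and 561, 322, 357 and 442 CPM on adenine. Adenine 2 and adenine 3 were the 2 lowest libraries and adenine 1 the second highest. Its log2 fold change was -0.25 (SE 0.20, adjusted p = 0.453). The catalytic subunits gave -0.22 for cytochrome c1 (Cyc1) and -0.11 for the Rieske iron-sulfur protein (Uqcrfs1), and the values nearest 0 were those of Uqcr10 (-0.02) and the hinge protein gene Uqcrh (-0.04). The core proteins Uqcrc1 and Uqcrc2, named here after their values were seen, form a dimer and had like fold changes (-0.24 and -0.21) but unlike libraries. Uqcrc2 ran from 241 CPM in control 4 to 662 CPM in control 2, and its log2 fold change was 0.04 without control 2 and -0.43 without control 4. Uqcrc1 was lowest in adenine 3, at 384 CPM, where Uqcrc2 had its highest adenine value, 486 CPM. Uqcrc2 also shares 19.7% of its exon bases with Pdzd9 on the opposite strand, and the strand setting of the counts is not given, although Pdzd9 had 290 reads in all against 90108 for Uqcrc2.

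The 7 assembly factors of complex III had a median of -0.20, 5 of 7 negative and 0 called. Uqcc1 (-0.33, SE 0.18, adjusted p = 0.326), which is needed for cytochrome b synthesis, and the complex III factor listed as BC004004 (-0.28, SE 0.15, adjusted p = 0.333) had the lowest p. Coenzyme Q, the substrate of complex III, is made by the Coq enzymes. Of 13 such genes tested, 11 were negative with a median of -0.18 and 0 called. Coq8a, a kinase-like protein of the synthesis complex, measured 335 ± 70.9 CPM in the controls and 232 ± 44.1 CPM on adenine (SD, n = 4), a log2 fold change of -0.53 (SE 0.20, adjusted p = 0.262). Coq10b, a coenzyme Q-binding protein, had the opposite sign, with 16.1 ± 2.34 and 22.4 ± 4.85 CPM and a log2 fold change of 0.48 (SE 0.18, adjusted p = 0.263). Neither Coq8a nor Coq10b passed the threshold.

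Complex IV held the 2 genes with the lowest p of the whole set. Cox7a1, the heart and skeletal muscle form of subunit VIIa, measured 464, 628, 583 and 610 CPM in the controls and 508, 325, 307 and 454 CPM on adenine. Adenine 2, 3 and 4 lay below every control, and adenine 1 lay above control 1. The means were 571 ± 73.7 and 398 ± 97.9 CPM (SD, n = 4), with a log2 fold change of -0.52 (SE 0.20, unadjusted p = 0.0236, adjusted p = 0.264). Cox8b, the muscle form of subunit VIII, measured 562, 652, 611 and 670 CPM in the controls and 563, 405, 393 and 527 CPM on adenine. It had the same order of libraries: adenine 2 and adenine 3 were lowest, adenine 4 next, and adenine 1 was level with control 1. Its log2 fold change was -0.40 (SE 0.18, unadjusted p = 0.0425, adjusted p = 0.279).

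The lowest libraries for both genes were adenine 2, which stood apart in Nppa, and adenine 3, which stood apart in macrophage markers. Without adenine 2 the log2 fold change of Cox7a1 was -0.43 and that of Cox8b -0.34, and without adenine 3 the values were -0.42 and -0.33. In each of these 4 cases the unadjusted p was above 0.05 (edgeR, 0.0657, 0.103, 0.0542 and 0.0957 in that order). This was not particular to those libraries. The edgeR p of Cox7a1 and Cox8b was also above 0.05 without control 2 (0.0546 and 0.0796) or control 3 (0.0591 and 0.0893). For Cox8b it was so without control 1, control 4 or adenine 4 as well (0.0518, 0.0807 and 0.0601). Adenine 3 also had the lowest sum of ventricular cardiomyocyte markers (29948 CPM), and adenine 2 the second lowest (44540 CPM). Those markers were negative in 8 of 8 genes with a median of -0.13 and 0 called. Their part in the values of Cox7a1 and Cox8b was not tested.

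Skeletal muscle and brown fat also make the muscle forms, so their markers were measured. The 8 brown and white adipocyte markers summed to 684 to 992 CPM in the controls and 659 to 1100 CPM on adenine, most of it from Fabp4, which endothelium also makes, with a median log2 fold change of 0.16 (3 of 8 negative, 0 called). Adipoq, Plin1 and Cfd were highest in control 2, but the white fat gene Lep was not (0.407 CPM there, 0.127 to 1.22 CPM over all libraries). Adipoq, the fat hormone adiponectin, measured 16.1 CPM in control 2 and 0.745 to 3.80 CPM in the other libraries. Cfd, the secreted protease adipsin, measured 57.8 CPM in control 2 and 1.38 to 18.8 CPM elsewhere, while Fabp4 was lowest there, at 578 CPM. The defining brown fat gene Ucp1 was at 0.251 ± 0.161 and 0.643 ± 0.338 CPM (SD, n = 4). The 8 skeletal muscle markers summed to 448 to 781 and 363 to 635 CPM, most of it from Ckm, which heart muscle also expresses, with a median of 0.58 (2 of 8 negative, 0 called). The fast myosin gene Myh4 was at 2.12 ± 0.789 CPM in the controls and 4.37 ± 2.34 CPM on adenine. In every library Ucp1 was at 1.10 CPM or less and Myh4 at 7.09 CPM or less. Other markers of the same lists were higher. Cidea, of the adipocyte list, measured 14.5 to 21.9 CPM over all libraries (log2 fold change 0.17). Mybpc2, of the skeletal muscle list, measured 14.8 to 31.2 CPM (-0.20, the opposite sign to Myh4).

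The ubiquitous partner of Cox7a1, Cox7a2, measured 303, 377, 307 and 342 CPM in the controls and 342, 292, 292 and 268 CPM on adenine. Control 1 and control 3 lay within the adenine range, and the log2 fold change was -0.16 (SE 0.16, adjusted p = 0.559). Cox8a, the ubiquitous form of subunit VIII, measured 170, 170, 147 and 146 CPM in the controls and 151, 101, 169 and 122 CPM on adenine. Here adenine 3 was level with the highest controls, in contrast to its place for Cox8b, and the log2 fold change was -0.22 (SE 0.18, adjusted p = 0.470). Cox6a2, the muscle form of subunit VIa, measured 1562, 1904, 1487 and 1581 CPM in the controls and 1580, 1420, 1147 and 1460 CPM on adenine. Adenine 1 lay among the controls and the other 3 below them, with a log2 fold change of -0.22 (SE 0.19, adjusted p = 0.488). Its ubiquitous partner Cox6a1 measured 126, 102, 84.4 and 112 CPM in the controls and 114, 55.8, 91.3 and 99.4 CPM on adenine. Only adenine 2 lay outside the control range of Cox6a1, and the log2 fold change was -0.24 (SE 0.21, adjusted p = 0.501).

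Subunit IV has a common form and one best known from lung and hypoxic cells. Cox4i1, the common form, measured 1617, 1667, 1438 and 1557 CPM in the controls and 1833, 1061, 1034 and 1556 CPM on adenine. Adenine 1 was the highest of all 8 libraries and adenine 2 and 3 the lowest, so its log2 fold change of -0.20 (SE 0.22, adjusted p = 0.599) averages unlike libraries. Cox4i2 measured 9.90, 6.03, 8.72 and 10.9 CPM in the controls and 8.92, 7.40, 4.62 and 7.55 CPM on adenine. All adenine libraries lay below the highest 2 controls and only adenine 3 lay below all 4, with a log2 fold change of -0.32 (SE 0.24, adjusted p = 0.430).

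The isoform pairs were compared within each library, where scaling between libraries plays no part. Per kilobase of transcript in the controls, the muscle form outweighed the ubiquitous form 12.9-fold for Cox6a2 over Cox6a1, 6.03-fold for Cox8b over Cox8a and 2.88-fold for Cox7a1 over Cox7a2, whereas Cox4i2 stood at 0.00591 of Cox4i1. This length scale uses 1 representative transcript per gene.

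The pair that differed most between diets was Cox7a1 over Cox7a2. The log2 ratio of their read counts was 0.62, 0.74, 0.93 and 0.83 in the controls and 0.57, 0.16, 0.07 and 0.76 on adenine. Adenine 2 and adenine 3 had nearly even read counts of both forms, while adenine 4 lay inside the control range and adenine 1 just below it. The difference of the means was -0.39 (exact two-sided permutation p = 0.0857, adjusted over 4 pairs 0.343, where 4 against 4 cannot go below 0.0286). For Cox8b over Cox8a the log2 ratio was 1.73, 1.94, 2.05 and 2.20 in the controls and 1.89, 2.0, 1.22 and 2.11 on adenine, and only adenine 3 lay outside the control range. Its difference was -0.17 (exact permutation p = 0.571, adjusted 0.857), and without adenine 3 it was 0.02. Cox6a2 over Cox6a1 gave 3.63, 4.22, 4.14 and 3.81 in the controls and 3.80, 4.67, 3.65 and 3.88 on adenine, with adenine 2 the highest. The difference was 0.05 (exact permutation p = 0.857, adjusted 0.857), and it was -0.18 without adenine 2. Cox4i2 over Cox4i1 gave -7.35, -8.11, -7.37 and -7.16 against -7.68, -7.16, -7.81 and -7.69, a difference of -0.09 (exact permutation p = 0.657, adjusted 0.857). The 3 muscle pairs thus had differences of -0.39, -0.17 and 0.05, none past the threshold.

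**Figure D2:**
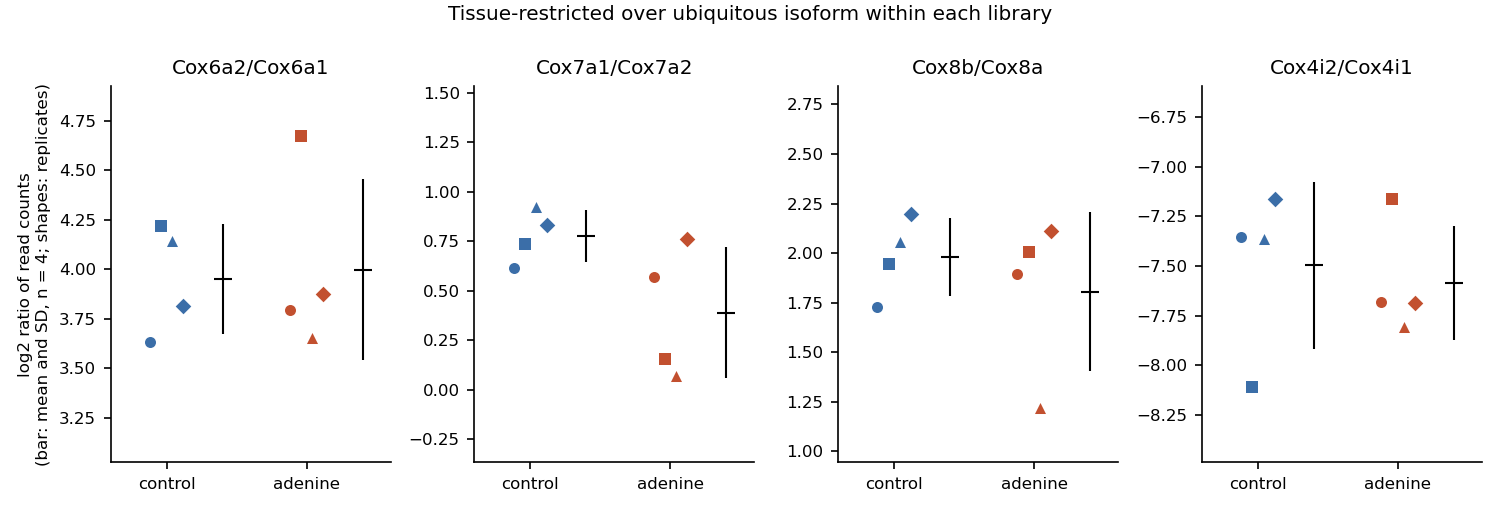
Log2 ratio of read counts of each tissue-restricted isoform to its partner, for each of 4 control and 4 adenine libraries, with mean and SD beside the points. The Cox7a1/Cox7a2 ratio is near 0 in adenine 2 and adenine 3 (0.16 and 0.07), and the Cox8b/Cox8a ratio is low in adenine 3 (1.22).

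The other complex IV genes gave values between -0.21 (Cox5a, a matrix-side subunit) and -0.04 (Cox6c) for the 7 other abundant ones, including Cox7a2l, a partner in supercomplexes of III and IV (-0.19, adjusted p = 0.462). The regulatory subunit gene Cox5b gave -0.13 and the cytochrome c docking subunit gene Cox6b1 gave -0.09. Ndufa4, named as a complex I gene but a subunit of complex IV, had a log2 fold change of -0.13 (adjusted p = 0.659). Summed over the 18 genes, complex IV measured 9096 ± 670 CPM in the controls and 7991 ± 1159 CPM on adenine (SD, n = 4).

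Assembly of complex IV needs copper and heme chaperones and translation factors for its mitochondrial subunits. Of 23 such genes, 20 were tested, 18 were negative, the median was -0.20 and 0 were called. In 2 of the 20, Taco1 and Coa3, all adenine libraries lay below all controls, against 3.84% of all genes. Coa3, which acts with the COX1 core subunit and is named here after its values were seen, measured 59.4, 56.5, 58.5 and 56.9 CPM in the controls and 53.1, 34.9, 43.5 and 54.0 CPM on adenine. Taco1, which activates translation of the core subunit COX1, measured 12.0 ± 3.34 CPM in the controls and 7.11 ± 0.668 CPM on adenine (SD, n = 4). All 4 adenine libraries of Taco1 (6.27 to 7.70 CPM) lay below the lowest control (8.10 CPM), and the log2 fold change was -0.76 (SE 0.20, unadjusted p = 0.00265, adjusted p = 0.198). Coa6, a copper-delivery factor, measured 16.5 ± 2.31 and 12.3 ± 2.08 CPM, with a log2 fold change of -0.42 (SE 0.17, adjusted p = 0.265). In the list of supercomplex and hypoxia factors 7 of 8 genes were negative (median -0.15, 0 called), and the exception Mcub, an inhibitory subunit of the mitochondrial calcium uniporter, had 1.73 ± 0.370 CPM in the controls and 1.68, 2.26, 8.18 and 2.17 CPM on adenine, with a log2 fold change of 1.06 (SE 0.46, adjusted p = 0.278). Without adenine 3, the library with the most macrophage RNA, the value of Mcub was 0.22. Hccs, which attaches heme to cytochromes c and c1, gave -0.33 (SE 0.17, adjusted p = 0.313).

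Complex V was the most abundant by reads, with 16178 ± 2219 CPM in the controls and 14163 ± 1918 CPM on adenine (SD, n = 4). All 17 genes had negative values, from -0.36 to -0.01, with adjusted p-values of 0.335 and above. Atp5g1 and Atp5g2, with Atp5g3, encode the same mature c subunit of the proton-driven rotor, joined to different import sequences. Atp5g1 measured 1454, 1567, 1324 and 1311 CPM in the controls and 1414, 899, 905 and 1183 CPM on adenine. Adenine 2, 3 and 4 lay below all controls and adenine 1 among them, the same layout as for Cox7a1, with a log2 fold change of -0.36 (SE 0.20, adjusted p = 0.335). Atp5g2 measured 282, 332, 253 and 257 CPM in the controls and 268, 222, 232 and 234 CPM on adenine. Its libraries had the same layout within a narrower range, and its log2 fold change was -0.23 (SE 0.16, adjusted p = 0.401). Atp5g3 gave -0.13, with 1584 CPM in adenine 1 and 864 CPM in adenine 3.

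The catalytic head gave -0.24 for the beta subunit gene Atp5b, -0.18 for the alpha subunit gene Atp5a1 and -0.10 for the gamma stalk gene Atp5c1. Atp5c1 was even among the adenine libraries (675 to 754 CPM) but ran from 555 to 1055 CPM in the controls, and its log2 fold change was 0.09 without control 2 and -0.23 without control 4. The stator genes Atp5pb, Atp5h, Atp5j and Atp5o gave -0.21, -0.11, -0.22 and -0.20. The small accessory genes of the membrane part were spread from -0.22 for Atp5k through -0.16 for Atp5md and -0.13 for Atp5j2 to -0.06 for Atp5mpl and -0.01 for Atp5l. Atp5l has 9 near-identical pseudogene copies in the reference, none of which matched a row of the count table. In all, 16 of the 49 genes have such a copy, and how reads were split with them is not given.

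The 5 assembly factors of complex V had a median of -0.25, with 4 of 5 negative and 0 called. Atpaf2, a chaperone of the alpha subunit, gave -0.38 (SE 0.17, adjusted p = 0.278), and Fmc1, which is needed for assembly of the catalytic head, gave -0.36 (SE 0.16, adjusted p = 0.280).

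**Figure D3:**
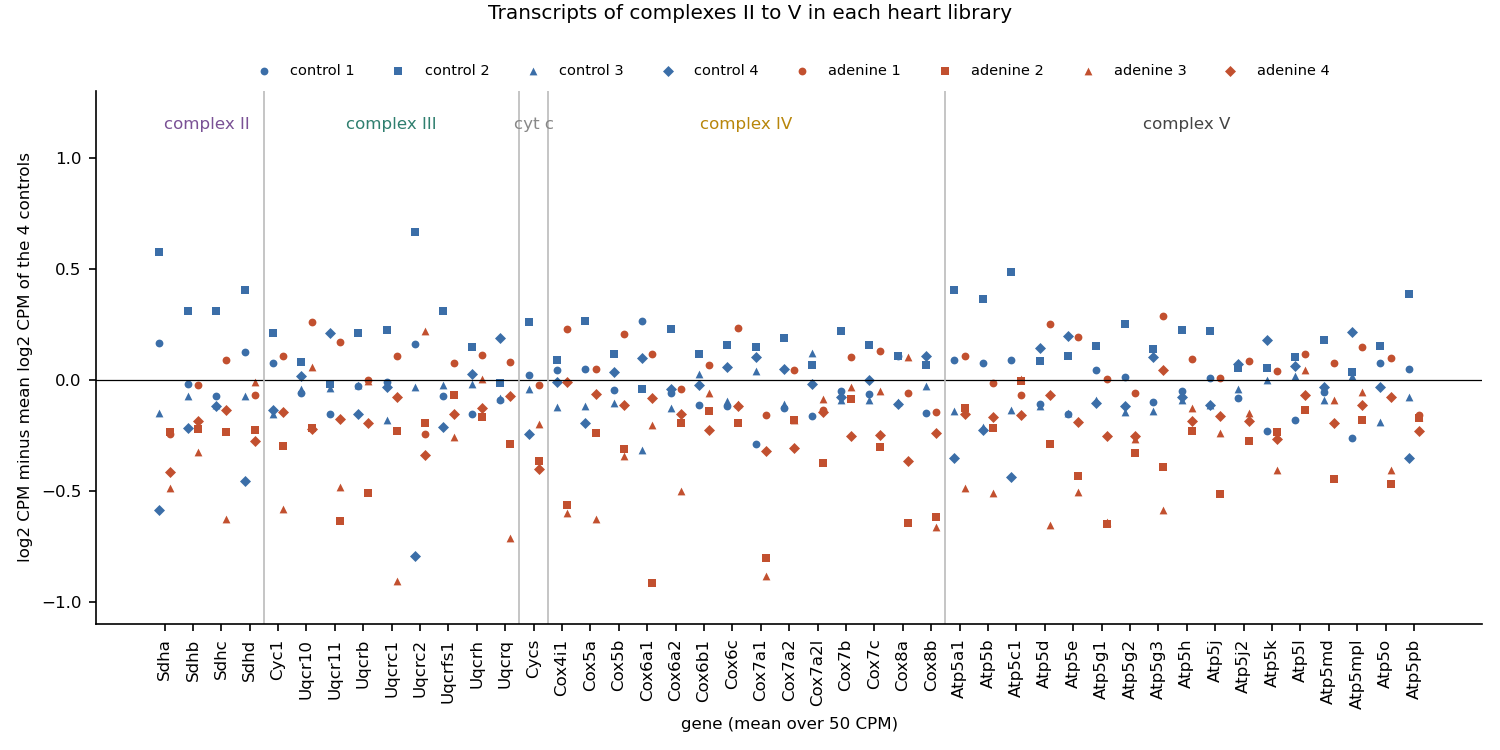
Log2 CPM of the 45 genes with a mean over 50 CPM in each library, relative to the mean of the 4 controls, ordered by complex. Control 2 (blue squares) lies above the control mean for 42 of 45 genes, and adenine 2 (red squares) above it for 0 of 45, while adenine 1 (red circles) lies above it for 30.

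The genes shared most of their pattern over libraries. The median log2 deviation of the 45 abundant genes from the control mean was -0.05, 0.16, -0.09 and -0.03 in the 4 controls by number and 0.07, -0.24, -0.26 and -0.18 in the 4 adenine libraries. Adenine 1 thus lay above 3 of the controls, and the lower mean on adenine rested on the other 3 libraries. Ventricular cardiomyocyte markers had the same libraries at both ends, with 53804 CPM in adenine 1 and 57591 CPM in control 2 as the highest sums and 44540 and 29948 CPM in adenine 2 and adenine 3 as the lowest. Without adenine 1 the median over the respiratory genes was -0.28 and 4 genes had an unadjusted p under 0.05. Without control 2 the median was -0.11 and 0 genes did. The share of all genes under that p in these fits is not given, so these counts cannot be set against other genes. Without control 1, which stood apart in erythroid markers, the median was -0.19.

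Within a diet the libraries also differed along transcript length and base composition. Between control 2 and control 4 the log2 difference over the 45 genes ran from -0.23 (Uqcr11, 445 bases) to 1.46 (Uqcrc2, 1896 bases), with r = 0.56 and rho = 0.59 against log2 transcript length and r = -0.41 against GC content. Sdha, at 2900 bases, was 1.16 log2 units higher in control 2 than in control 4. Between adenine 3 and adenine 4 the difference ran from -0.83 (Uqcrc1, 57.5% GC) to 0.56 (Uqcrc2, 44.4% GC), with r = -0.42 against GC content and -0.10 against length. Between adenine 2 and adenine 1 it ran from -1.03 (Cox6a1, 58.8% GC) to 0.06 (Atp5c1, 47.9% GC), with r = -0.43 against GC content and 0.32 against length. These are descriptions across genes that share 2 libraries each, and genes are not independent replicates. The muscle forms Cox7a1 and Cox8b are the shorter of their pairs (393 and 360 bases against 659 and 550), so a trend with length touches their ratios, and its part in them was not tested. With a trend in merged exon length over all genes removed, the log2 fold change of Cox7a1 was -0.81 and that of Cox8b -0.68. Their adjusted p-values were 0.226 and 0.240 (edgeR). The ubiquitous partners moved down as well, from -0.16 to -0.43 for Cox7a2 and from -0.22 to -0.47 for Cox8a.

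**Figure D4:**
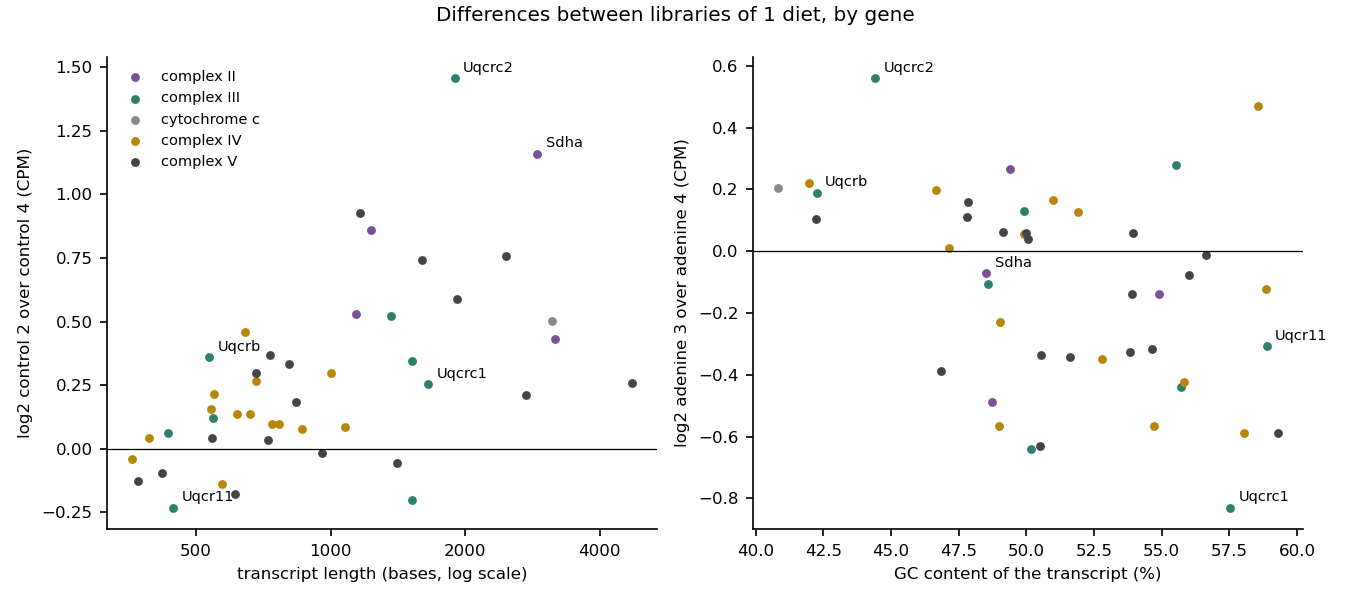
Differences between libraries of the same diet for the 45 abundant genes: control 2 over control 4 against transcript length (left) and adenine 3 over adenine 4 against GC content (right), in log2 units of CPM. Long transcripts such as Uqcrc2 (1.46) and Sdha (1.16) were higher in control 2, and GC-rich Uqcrc1 (-0.83) was lower in adenine 3.

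The sign of the mitochondrially encoded partners depended on the processing. Cytochrome b (mt-Cytb), the 3 core subunits of complex IV (mt-Co1, mt-Co2 and mt-Co3) and the ATP synthase subunits mt-Atp6 and mt-Atp8 had 0 of 6 negative values, with a median of 0.11 and 0 called. The lowest p belonged to mt-Atp6 (0.27, SE 0.26, adjusted p = 0.546) and mt-Atp8 (0.24, SE 0.25, adjusted p = 0.561), and with the length trend removed the values were -0.02 and -0.07. The median of the 6 genes turned to -0.18 with that trend removed, where the median of the nuclear genes was -0.37 and that of all genes -0.04. The 2 genes lie in 1 overlapping transcript, so their reads are not separate measurements.

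Within each library, reads of nuclear subunits were set against reads of the mitochondrially encoded subunits of the same complex. For complex III the log2 ratio was -2.89, -2.96, -2.98 and -2.78 in the controls and -3.14, -3.26, -3.22 and -2.86 on adenine, a difference of -0.22. Adenine 1, 2 and 3 lay below all controls and adenine 4 among them. For complex IV it was -4.20, -4.38, -4.48 and -4.22 in the controls and -4.58, -4.82, -4.48 and -4.43 on adenine, a difference of -0.25, with control 3 and adenine 3 at the same value to 2 decimals. For complex V it was -0.86, -0.97, -1.29 and -1.13 in the controls and -1.50, -1.79, -1.65 and -1.09 on adenine, a difference of -0.45, with adenine 4 again inside the control range. The low ratios had unlike parts in different libraries. For complex IV in adenine 1, nuclear subunits took 0.875% of reads, within the control range of 0.834% to 0.986%, and the mitochondrial subunits 20.9%, above the control range of 16% to 18.6%. In adenine 3 the nuclear subunits of complex IV took 0.747%, below all controls, and the mitochondrial ones 16.7%, within the control range.

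**Figure D5:**
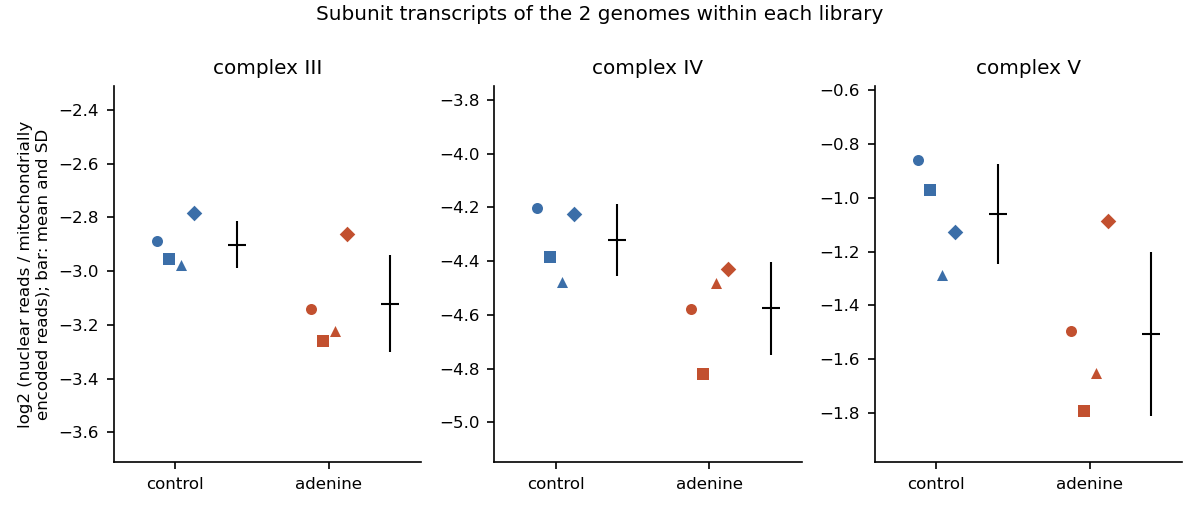
Log2 ratio of summed reads of nuclear to mitochondrially encoded subunits of complexes III, IV and V in each library, with mean and SD (n = 4) beside the points. The adenine means lie 0.22, 0.25 and 0.45 log2 units below the control means, and adenine 4 (diamonds) lies within the control range for complexes III, IV and V.

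Neighbouring gene groups gave the setting for these small negative values. The 38 nuclear genes of complex I, where electrons from NADH enter, had a median of -0.17. Of the 38, 37 were negative and 0 called. At an unadjusted p under 0.05 (edgeR) there were 0 of them, against 6.63% of all genes lower and 10.9% higher. The lowest p in complex I belonged to the accessory subunit gene Ndufb6 (-0.28, SE 0.18, adjusted p = 0.381). The 14 citric acid cycle genes had a median of -0.26, 14 of 14 negative and 0 called, with -0.39 for Suclg1 (SE 0.18, adjusted p = 0.281) and -0.37 for Sucla2 (SE 0.20, adjusted p = 0.323), subunits of succinyl-CoA ligase. Mitochondrial ribosomal protein genes had a median of -0.20 over 77 tested, with 73 negative and 0 called. Of the 77, 6 were lower at an unadjusted p under 0.05 (edgeR), against 6.63% of all genes, a share near that of all genes. The lowest p in this group belonged to Mrpl36 and Mrpl3, with -0.46 and -0.47 (adjusted p = 0.224 and 0.227). Cytosolic ribosomal protein genes, which are abundant and have short transcripts as well, had a median of -0.01 over 84 tested, with 46 negative and 0 called. That median depended on single libraries: it was -0.16 without adenine 3, whose sum over these genes (29987 CPM) exceeded the 17149 to 23906 CPM of adenine 1, 2 and 4, and 0.11 without adenine 2. Without adenine 3 the median of complexes II to V was -0.14 and that of the mitochondrial ribosome -0.17. Complexes II to V therefore had nearly the same median as complex I and the mitochondrial ribosome.

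Transcription of these genes is driven by factors such as NRF1 and GABPA, with the coactivator PGC-1alpha (Ppargc1a) and the receptor ERRalpha (Esrra), and TFAM maintains and transcribes mitochondrial DNA. Among 17 such regulators 14 were negative, with a median of -0.12 and 0 called. Tfam measured 35.7 ± 6.48 CPM in the controls and 27.3 ± 1.86 CPM on adenine (SD, n = 4), a log2 fold change of -0.38 (SE 0.15, unadjusted p = 0.0248, adjusted p = 0.265), and control 4 (27.9 CPM) lay within the adenine range. Mef2a, a muscle transcription factor, gave -0.36 (SE 0.18, adjusted p = 0.303). Named after their values were seen, Esrra gave -0.39 (adjusted p = 0.307), Ppargc1a -0.08 (adjusted p = 0.815), Gabpa -0.22 (adjusted p = 0.471) and Nrf1 0.19 (adjusted p = 0.463). Gabpa also shares exon bases with Atp5j on the opposite strand, 12.7% of those of Atp5j.

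The remaining cell type lists had 0 called genes each with all 8 libraries. Their median log2 fold changes were -0.72 for 8 fibroblast, -0.43 for 8 endothelial, -0.32 for 7 pericyte and smooth muscle, 1.02 for 8 macrophage, -2.17 for 5 erythroid and -2.43 for 5 atrial markers. Negative values numbered 6, 7, 5, 1, 5 and 4 in that order. The markers with the other sign were Col1a1 (0.54) and Col1a2 (0.89) for fibroblasts, both highest in adenine 3, and Fabp4 (0.14) for endothelium. For pericytes and smooth muscle they were Cspg4 (0.03) and Notch3 (0.07), for macrophages Csf1r (-0.03) and for atrial cells Nppa (0.16). Without control 2 the atrial median was 0.17, and without adenine 3 the macrophage median was -0.16. Outside control 1 the erythroid markers summed to 7008 to 8058 CPM in the controls and 1660 to 3085 CPM on adenine, and without control 1 their median was -1.52. The lowest p in each belonged to Dpt (-1.21, adjusted p = 0.128) and Tcf21 (-1.03, adjusted p = 0.142) for fibroblasts, Cavin2 (-0.85, adjusted p = 0.0681) and Tek (-0.58, adjusted p = 0.129) for endothelium, Vtn (-0.78, adjusted p = 0.231) and Myh11 (-0.97, adjusted p = 0.274) for pericytes and smooth muscle, and Lgals3 (3.27, adjusted p = 0.128) and Cd14 (1.25, adjusted p = 0.274) for macrophages. The alpha-globin genes Hba-a1 and Hba-a2 gave -2.34 and -2.37 (adjusted p = 0.0744 each), and the atrial genes Myl4 and Bmp10 -2.52 and -2.48 (adjusted p = 0.30 and 0.276). Without adenine 3 the log2 fold change of Lgals3 was 1.69 and passed the threshold (edgeR adjusted p = 0.00822), and without control 2 that of Myl4 was -0.38. The part of these markers in the values of the respiratory genes was not tested.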

How the data were processed

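Mouse heart RNA was sequenced in bulk in 8 libraries, 4 per diet. Per the labels' protocols, total RNA was extracted with phenol reagent before NEBNext Ultra library construction. FastQC 0.11.9, STAR 2.7.6a and GRCm38.p6 are listed in the submitters' processing notes. The sources used here do not name the program and annotation behind the counts or their use of strand. Values in the deposited table are raw counts of reads per gene, which the authors did not scale. Groups and replicate numbers come from the sample titles.

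The main test was the quasi-likelihood F-test of edgeR 4.0.16 in R 4.3.3, with the default filter by group and TMM factors, over all 20093 genes that passed, and Benjamini-Hochberg adjustment with a threshold of 0.05. Standard errors were derived from the F statistic. CPM values use TMM-scaled library sizes. Isoform ratios were tested by exact permutation over the 70 assignments of libraries to diets. Rank correlations (rho) were computed with scipy 1.17.1. The planned permutation p for the nuclear to mitochondrial ratios is not given, since those sums were formed over genes chosen with results known. The genes and lists were chosen with earlier results of these data known. Values per library are given for the 2 genes with the lowest p in each complex (complex III with cytochrome c) and for both members of 4 isoform pairs, and for other lists up to 2 genes with the lowest p. Other genes given by name were chosen after their values were seen.

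Exons, transcript lengths and GC content come from a GENCODE annotation of GRCm38, to which 27275 of 27304 identifiers matched, and 1 representative transcript per gene was used. The length trend was removed on the merged exon length of each gene, not on the length of that transcript. Copies were counted as pseudogenes with at least 95% identity over at least 100 bases. 1 erythroid marker, Hbb-bs, had no match, and 3 complex IV assembly factors were not tested. Replicates differed by more than sampling noise (20.0 to 96.8 in chi-square for each gene on average), and all were kept as separate samples. Fits were tested on simulated data, with 50 genes changed at each of 4 sizes. A log2 change of 0.5 was recovered in 8% of them, 1 in 62%, 1.5 in 68% and 2 in 86%. Of 120 calls, 8 were false. The changed genes were drawn from all with a mean of at least 1 CPM, so they are not matched to the respiratory genes in abundance. Alternatives were the Wald test of DESeq2 1.42.0, voom in limma 3.58.1, scaling by DESeq2 or by upper quartiles, leaving out mitochondrial transcripts, no filter, a minimum of 1 CPM in 4 libraries, the replicate number as a block, removal of a length trend, and leaving out each library.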

Additional observations from a re-analysis of the deposited data

Results flagged for a closer look

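Over 110 groups of 4 values (each gene, isoform ratio and genome ratio in each diet), 5 held 1 library far from the other 3 by Dixon's criterion at the 95% level. Chance flags about 1 in 20 groups. For Sdhc, a membrane anchor of complex II, control 2 measured 479 CPM and the other controls 355 to 367. For Atp5h, a stator subunit of complex V, control 2 measured 1048 CPM against 843 to 867. For Cox7b, a small subunit of complex IV, control 2 measured 742 CPM against 598 to 614. All 3 values are high in the library whose atrial markers sum to 4864 CPM, and the part of those cells was not tested. For Atp5pb, another stator subunit, adenine 4 measured 680 CPM against 708 to 714, a narrow range in which the gap itself is small. For Cox6b2, a testis form, adenine 3 measured 1.91 CPM against 1.04 to 1.16, and without that library its log2 fold change was -0.09.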

How the results depend on the processing

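Under all 17 alternative settings 0 respiratory genes were called, and the lowest adjusted p of any was 0.145 (DESeq2, Cox7a1). For the counts at an unadjusted p that follow, the share of all genes is given for the main analysis alone. The number lower at an unadjusted p under 0.05, 2 in the main analysis, was 0 with upper-quartile factors, 1 without mitochondrial transcripts, 1 with no filter, 1 with the filter of 1 CPM, 1 with the replicate block, 4 with the length trend removed, and 0 to 4 when single libraries were left out (0 without control 2, control 3, adenine 2 or adenine 3, 4 without adenine 1). The median of the respiratory genes moved to -0.049 with upper-quartile factors and to -0.37 with the length trend removed, where the median of all genes was 0.20 and -0.04, and ranged from -0.28 to -0.11 when single libraries were left out. The numbers of all genes called were 0 lower and 8 higher in the main analysis, 152 and 120 by DESeq2, 16 and 16 with the replicate block, 30 and 37 without adenine 3, and 0 to 30 lower and 1 to 37 higher over the single libraries left out.

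Of 815 values of single respiratory genes, 38 changed sign. The values of mt-Atp6, mt-Atp8 and Bmp10 given below are outside that count. With upper-quartile factors the log2 fold change was 0.069 for Atp5c1, 0.015 for Atp5g3, 0.033 for Atp5h, 0.00998 for Atp5j2, 0.13 for Atp5l, 0.077 for Atp5mpl, 0.016 for Cox5b, 0.054 for Cox6b1, 0.099 for Cox6c, 0.078 for Cox7b, 0.026 for Cox7c, 0.12 for Uqcr10, 0.046 for Uqcrfs1 and 0.095 for Uqcrh. With the filter of 1 CPM it was 0.057 for Atp5l, 0.010 for Atp5mpl, 0.027 for Cox6c, 0.0033 for Cox7b, 0.051 for Uqcr10 and 0.025 for Uqcrh. With the length trend removed it was -0.057 for Cox6b2, -0.023 for mt-Atp6 and -0.074 for mt-Atp8. Leaving out single libraries gave ranges of -0.23 to 0.087 for Atp5c1, -0.074 to 0.029 for Atp5l, -0.14 to 0.015 for Atp5mpl, -0.091 to 0.54 for Cox6b2, -0.16 to 0.0099 for Cox6c, -0.14 to 0.0080 for Cox7b, -0.13 to 0.060 for Uqcr10, -0.43 to 0.045 for Uqcrc2, -0.11 to 0.0046 for Uqcrh and -3.05 to 0.31 for the atrial gene Bmp10. For the isoform ratios the ranges were -0.18 to 0.16 for Cox6a2/Cox6a1 (negative without control 1 or adenine 2), -0.28 to 0.022 for Cox8b/Cox8a (positive without adenine 3) and -0.29 to 0.024 for Cox4i2/Cox4i1 (positive without control 4). The cause of these shifts was not tested.

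The replicate numbers did not pair the libraries: same-numbered libraries correlated at 0.09, -0.50, -0.16 and 0.30 in their deviations from the diet means, and 0 of 4 correlated best with its own number. With the replicate block the median was -0.19, 0 genes were called, and the isoform ratios gave p of 0.125 to 0.875 by sign flips, where 0.125 is the smallest possible. Depth limits Cox7b2, Cox8c and Cox6b2, with 74, 85 and 268 reads over all libraries.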
